A study of Caenorhabditis elegans with 12 samples.

Results

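Genes of the *C. elegans* X chromosome that carry only a sequence name, made of a clone name and a running number such as W05H9.4, were followed in gonads of *set-2* mutants over generations at 25°C. The genes were chosen by 3 rules: position on X, a public name identical to the sequence name in the deposited gene table, and a raw count of at least 50 summed over the 12 samples, so that the choice used the counts. This gave 654 genes out of 45461 counted, from 4552 X-linked genes without a class name among 5849 X-linked genes. Of the remaining genes without a class name, 3893 had fewer than 50 counts, 1767 of them with no count at all, 3 had no row in the count files, and K09F5.6 and ZK813.3 were left out by name. Just inside the limit lay T10H10.2 and Y102A11A.9 with 50 counts and C36C9.5 with 51, and just outside it lay F28H6.2, F46F2.5 and T25D1.2 with 49 each.

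Each of the 4 groups had 3 samples, which came from 3 lineages, as read from the replicate numbers of the labels. P0 animals were heterozygotes, *set-2*(*bn129*) over the balancer *qC1*(*qIs26*), which covers chromosome III and not X. F2 fertile, F4 fertile and F4 sterile animals were *set-2*(*bn129*) homozygotes that descended from them. All were day 1 adults, and gonad arms were cut at the bend and pooled for each sample. Fertile animals had laid live progeny, and F4 sterile animals were those without visible embryos in the uterus. P0 therefore differed from the other groups in genotype and in generation together, and these cannot be told apart. No wild-type gonads enter the comparisons.

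SET-2 is the catalytic subunit of the *C. elegans* COMPASS complex, which methylates lysine 4 of histone H3. In hermaphrodite germ cells both X chromosomes are kept largely silent from the mitotic zone through early meiosis, and X-linked transcription increases in late oogenesis. The silencing depends on the Polycomb-type complex of MES-2, MES-3 and MES-6, which places methyl groups on lysine 27 of histone H3 across X, and on MES-4, a lysine 36 methyltransferase that marks germline-expressed genes of the autosomes. X is accordingly poor in germline-expressed genes, and many of its genes serve somatic tissues.

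The totals on genes ranged from 3456068 to 10335794 counts per sample. The *set-2* transcript was at 141.1 to 157.0 CPM (counts scaled to library size) in F2 fertile, 122.6 to 129.8 in F4 fertile and 131.6 to 134.8 in F4 sterile samples, against 185.8 to 196.8 in P0. Of 8 germ cell genes fixed as markers, 7 were lower and 1 higher in F4 sterile than in P0, with a summed level of 2247 to 2464 CPM against 3465 to 3727. Of 8 oocyte genes 3 were lower, with 8007 to 11216 CPM against 12131 to 13687. For the neuronal list 3 of 7 genes were tested and all 3 were higher, with 134.6 to 147.1 CPM in F4 sterile against 93.0 to 99.9 in P0, most of it from *snb-1*. Of 7 somatic gonad genes 2 were tested, and *fln-1* (filamin) was the only one called and was lower. The list, nearly all of it from *fln-1*, summed to 932.6 to 1054.5 CPM in F4 sterile against 1510.7 to 1588.1 in P0. Of 7 genes each in the intestine and muscle lists, 4 and 5 were tested, and none was called in that comparison. The intestine list summed to 1022.5 to 5725.5 CPM in F4 sterile against 3211.8 to 4130.8 in P0, and the muscle list to 48.6 to 196.0 CPM against 66.2 to 105.1. In both lists the lineage 2 sample of F4 sterile was the highest of the 12. In the sperm and hypodermis lists 2 genes each were tested, and the calls were *fer-1*, higher, and *bli-1*, lower. The sperm list summed to 8.28 to 31.2 CPM in F4 sterile against 3.36 to 8.01 in P0, and the hypodermis list to 5.37 to 29.7 CPM against 20.9 to 23.6. The part of these shifts in the results on X-linked genes was not tested, and in pooled gonads fewer cells of a type and less RNA per cell cannot be told apart.

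Of the 654 genes, 626 matched an identifier in Ensembl release 115, where 570 are protein-coding, 49 pseudogenes and 7 other RNA genes, and 153 have a class name by now. Their totals ranged from 50 to 41995 counts with a median of 288.5, and the 6 most counted genes held 22.6% of the 822428 counts. They overlapped another gene of at least 50 counts on the other strand in 53 cases and on the same strand in 16. Since the strand setting of the counting is not given in the sources used here, reads of such pairs may not have been assigned to the right gene.

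The share of gene counts that fell on the 654 genes was lowest in P0 and highest in F4 sterile samples. It was 0.703%, 0.541% and 0.629% in P0 (lineages 1, 2 and 3), 0.951%, 1.146% and 0.918% in F2 fertile, 1.000%, 1.091% and 1.087% in F4 fertile, and 1.289%, 1.823% and 1.479% in F4 sterile samples. P0 did not overlap any of the other groups, F2 and F4 fertile samples overlapped, and F4 sterile lay above both.

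Differences between groups were tested for each gene with edgeR's quasi-likelihood test, and genes with an adjusted p under 0.05 over the 8746 genes tested are called here higher or lower. Of the 654 genes, 501 passed edgeR's filter on low counts, and the 153 that did not had between 50 and 145 counts in all. Some genes passed because they were high in one group, so that the counts below describe the genes tested and not all 654.

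In F2 fertile gonads 121 of the 501 genes were higher than in P0 and 0 were lower. Over all genes tested, 7.6% were higher and 1.33% lower. The median log2 fold change of the 501 genes was 0.74, against 0.04 over all genes, and 90 of the called genes exceeded 1. At an unadjusted p under 0.05, 5 genes were lower, and DESeq2 called 0 lower. Without lineage 2 of F2 fertile 65 genes were called higher, without lineage 2 of P0 58, and without lineage 3 of P0 64.

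In F4 fertile gonads 181 genes were higher than in P0 and 9 were lower, while 13.7% of all genes were higher and 7.42% lower. The median log2 fold change was 0.78, against 0.04 over all genes. The count of lower genes rested on single libraries. It was 1 and 2 without lineage 1 or 2 of F4 fertile, and 4, 5 and 4 without lineage 1, 2 or 3 of P0.

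In F4 sterile gonads 341 genes were higher than in P0 and 13 lower, beside 26.4% higher and 16.8% lower among all genes. The median log2 fold change was 1.47, against 0.05 over all genes, and 314 of the genes called higher exceeded 1. Called genes spanned log2 fold changes of -2.61 to 3.81. Leaving out single libraries gave between 280 and 360 genes higher and between 9 and 19 lower.

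Between the F4 groups, 51 genes were higher in sterile than in fertile gonads and 0 were lower, against 2.85% and 0.434% of all genes. The median log2 fold change was 0.64, against 0.02 over all genes. An unadjusted p under 0.05 was reached by 216 higher and 9 lower genes, and DESeq2 called 0 lower. With lineage as a replicate block 82 genes were higher and 1 lower. With only the 6 samples compared, edgeR called 0 higher and 0 lower, and 171 higher and 7 lower genes had an unadjusted p under 0.05. The count of 51 depended on single libraries more than those of the other comparisons did. It was 4, 1 and 1 without lineage 1, 2 or 3 of F4 fertile, 3 without lineage 2 of F4 sterile, and 145 higher with 3 lower without lineage 1 of F4 sterile.

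F4 fertile gonads were not called different from F2 fertile gonads at any of the 501 genes, with 0 higher and 0 lower, beside 0.0114% higher and 0.0% lower of all genes. The median log2 fold change was 0.02, an unadjusted p under 0.05 was reached by 22 higher and 10 lower genes, and DESeq2 called 0 in both directions.

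The first change in these data, F2 fertile against P0, and the difference within the fourth generation, F4 sterile against F4 fertile, share no samples. They had 29 called genes in common, which was 24.0% of the 121 genes higher in F2 and 56.9% of the 51 genes higher in F4 sterile. Over all genes tested, these included, 106 were in common, which was 15.9% of 665 and 42.6% of 249. Of all 501 genes, 24.2% were higher in the first comparison and 10.2% in the second. Among the 125 genes with the highest mean CPM over all 12 samples, the compared ones included, 78 were higher in the first and 33 in the second. With only the 6 samples compared, 0 genes were called in the second, so that no overlap could be counted.

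X-linked genes with a class name, 565 of which reached 50 counts and 468 of which were tested, gave 172, 237 and 375 genes higher than P0 in F2 fertile, F4 fertile and F4 sterile gonads, and 0 lower in each. At an unadjusted p under 0.05, 0, 2 and 0 of them were lower, and DESeq2 called 0 lower in each. In F4 sterile gonads 68.1% of the genes without a class name were higher and 2.59% lower than in P0, with 80.1% and 0.0% for X-linked genes with a class name. Of 4344 autosomal genes without a class name, 18.4% were higher and 17.4% lower. The classes were compared by these counts alone, without a test of the difference between them.

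**Figure D1:**
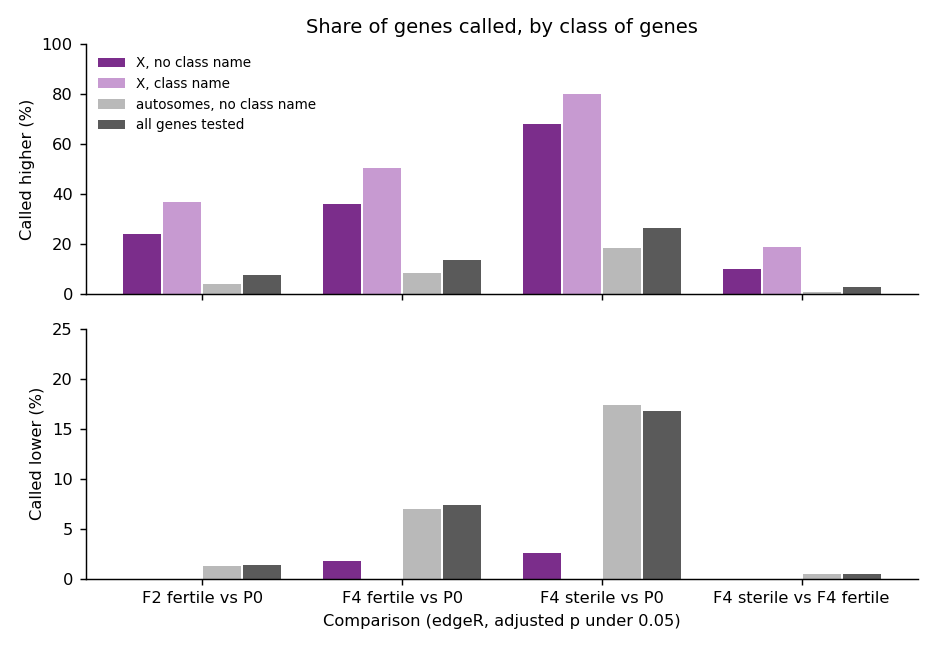
Percent of tested genes called higher (upper panel) and lower (lower panel, with its own scale) by edgeR in each comparison, for X-linked genes without a class name (dark purple), X-linked genes with one (light purple), autosomal genes without one (light grey) and all genes tested (dark grey). F4 fertile against F2 fertile is not drawn. Among genes called higher, both X classes have taller bars than the autosomal class in each comparison shown, and they reach 68.1% and 80.1% in F4 sterile against P0. Among genes called lower, X-linked genes without a class name reach 2.59% and those with one 0.0%.

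Within lineages, the median log2 difference of the 501 genes between F4 sterile and P0 was 0.94, 2.05 and 1.3 in lineages 1, 2 and 3, with 0.08, 0.03 and 0.06 over all genes. Between F2 fertile and P0 it was 0.51, 1.17 and 0.56, and between F4 sterile and F4 fertile it was 0.35, 0.92 and 0.50. Lineage 2 thus had the largest median in each of the 3 comparisons. Its F4 sterile sample is the one with the highest sums of intestine and muscle markers, whose part in this was not tested, and without that sample 280 genes were higher in F4 sterile than in P0. Library-name prefixes mark 3 sets of libraries. The F4 sterile and F4 fertile libraries of each lineage carry the same prefix, and all 4 libraries of lineage 3 do, so that the values of lineage 3 come from 1 set. In lineage 2 the P0 library carries another prefix than the rest. In lineage 1 the F4 libraries carry another prefix than those of P0 and F2. All differences from P0 in lineage 2, and those of F4 in lineage 1, therefore cross sets. Group and set cannot be told apart within them. With the prefix as a covariate, 357 genes were higher in F4 sterile than in P0.

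The genes were then compared by their position in 9 bins of 2 Mb along X, numbered from the left end. In bins 2 to 9, between 67.9% and 81.8% of the genes tested were higher in F4 sterile than in P0, and the medians lay between 1.36 and 2.06 on the log2 scale. The highest median was that of bin 3, with 36 of 44 genes higher. Bin 1 stood apart, with 28 of 88 genes higher, 10 lower and a median of 0.14. Over bins 2 to 9, 3 of 413 genes were lower. X-linked genes with a class name in bin 1 had a median of 1.44, with 38 of 48 higher and 0 lower. The 3 lower genes outside bin 1 were ZK813.1 in bin 2, C39D10.7 in bin 4 and F23A7.8 in bin 9.

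Per sample, the medians of P0 lay below those of every homozygous sample in bins 2 to 9, and the medians of F4 sterile lay above all others in bins 2 to 8. In bin 3 the median difference from the mean of P0 was 0.09, -0.08 and -0.11 in P0, 0.89, 1.12 and 0.65 in F2 fertile, 1.14, 1.16 and 1.03 in F4 fertile, and 1.75, 2.37 and 1.84 in F4 sterile (lineages 1, 2 and 3). In bin 1 it was 0.11, -0.02 and -0.04 in P0, 0.04, 0.22 and 0.11 in F2 fertile, -0.13, 0.07 and 0.16 in F4 fertile, and -0.15, 0.22 and 0.29 in F4 sterile. All 4 groups overlapped in bin 1. The median of bin 1 turned slightly negative without lineage 2 of F4 sterile (-0.09) or without lineage 2 of P0 (-0.01).

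**Figure D2:**
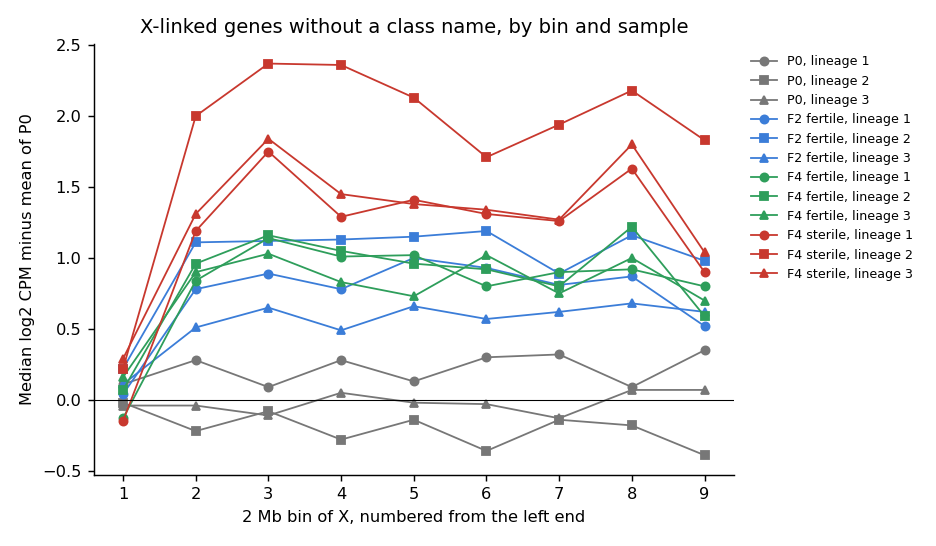
Median log2 CPM of the genes tested in each 2 Mb bin of X, minus the mean of P0, for each of the 12 samples (colours mark the groups, symbols the lineages). In bin 1 all samples lie between -0.15 and 0.29. In bins 2 to 9 the lineage 2 sample of F4 sterile is the highest, reaching 2.37 in bin 3.

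Genes called higher were spread along the chromosome. The longest run of neighbouring tested genes without a class name that were all higher in F4 sterile than in P0 held 17 genes, from F17H10.3 to K02D3.1 between positions 13116286 and 13707885 (coordinates of WS220, the build of the authors' mapping). When X-linked genes with and without a class name were put in 1 order, the longest run held 27 genes, from C24A8.4 to F55D10.2 between 4333124 and 4715772. On both strands the share was alike, with 164 of 242 genes higher on the plus strand and 177 of 259 on the minus strand.

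To place the difference of bin 1, the first 2 Mb were divided into windows of 0.25 Mb, a choice made after the bin values were seen. The outermost window held 44 of the 654 genes, 23 of them pseudogenes. Of 38 tested, 1 was higher and 8 were lower in F4 sterile than in P0, and the median was -0.36. In the next windows 4 of 9, 3 of 3, 5 of 10 and 5 of 6 genes were higher and 0 lower, with medians of 0.90, 1.31, 1.21 and 1.29. Window 6 again had a median near 0, at -0.03, with 3 of 8 genes higher and the pseudogene W05H7.2 lower (-0.90). Only 2 X-linked genes with a class name were tested in the outermost window, and neither was called.

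**Figure D3:**
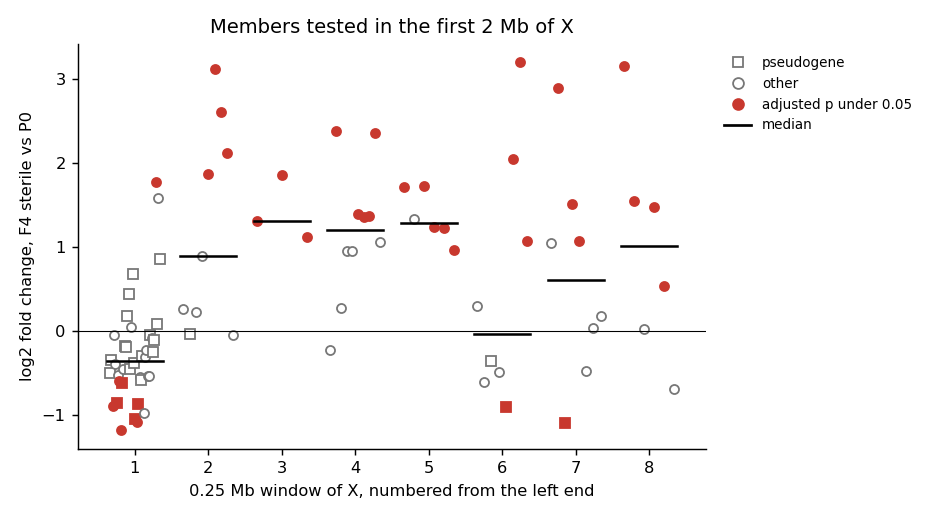
Log2 fold change in F4 sterile against P0 of each tested gene in the 8 windows of 0.25 Mb that make up the first 2 Mb of X (squares, pseudogenes, and circles, other genes, in the order of position within a window, filled where the adjusted p is under 0.05, with a bar at the median). In window 1, 8 of 38 genes are called lower and 1 higher, while windows 2 to 5 hold called genes that are all higher.

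The summed level of the 44 genes of the outermost window was 2316, 1812 and 2124 CPM in P0, 1519, 2053 and 2319 in F2 fertile, 1339, 1677 and 2074 in F4 fertile, and 1228, 1661 and 1718 in F4 sterile. The F4 sterile samples all lay below the P0 samples, with a mean of 1536 ± 268.4 CPM in F4 sterile and 2084 ± 254.3 in P0 (SD, n = 3 each), a ratio of 0.737. The other 610 genes summed to 13129.5 ± 2699 CPM in F4 sterile and 4502 ± 780.2 in P0 (SD, n = 3 each), a ratio of 2.92. All 654 genes together had a ratio of 2.23, and all X-linked genes with a class name, those of the outermost window included, 2.62. Such sums follow the most counted genes. The latter includes *vit-2* and *vit-5* of the intestine list, which had log2 fold changes of -0.04 and 0.20. Over genes tested, the median log2 fold change was 1.70 with a class name and 1.54 without one outside the outermost window.

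**Figure D4:**
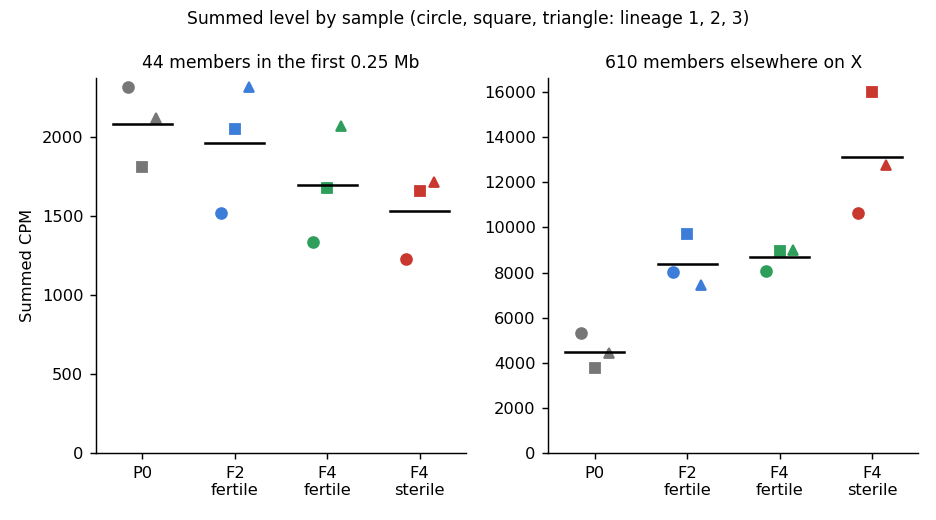
Summed CPM in each sample (points, with the symbol marking the lineage, and bars at the group means) of the 44 genes in the first 0.25 Mb of X and of the 610 genes elsewhere on X. The left sums average 1536 CPM in F4 sterile and 2084 in P0, and the right sums 13129.5 and 4502.

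The outermost window holds 2 of the 6 genes with the most counts. Y73B3A.23, a non-coding RNA gene at 59625 to 59849, lies within the pseudogene Y73B3A.18 at 48483 to 60781 on the same strand, so that their counts may not separate. Y73B3A.18 was at 540.6, 490.2 and 518.8 CPM in P0, 388.9, 523.6 and 552.4 in F2 fertile, 299.2, 359.5 and 450.1 in F4 fertile, and 268.5, 362.3 and 374.7 in F4 sterile. It was lower in F4 sterile than in P0 by a log2 fold change of -0.62 ± 0.16 (SE derived from the test statistic, edgeR adjusted p = 0.0081). Y73B3A.23 was not called, with -0.45 ± 0.33 (edgeR adjusted p = 0.29). The protein-coding Y73B3A.1 was at 101.1, 163.9 and 183.3 CPM in F4 sterile and 245.0, 211.4 and 216.8 in P0, and its call was close to the limit (-0.59, edgeR adjusted p = 0.046).

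A group of neighbours between 150365 and 160920 fell in both F4 groups. The pseudogene Y73B3A.9 was at 23.0, 27.1 and 25.4 CPM in P0, 18, 20.9 and 19.5 in F2 fertile, 13.2, 14.3 and 18.7 in F4 fertile, and 10.9, 12.6 and 12.5 in F4 sterile. No P0 value overlapped those of the other groups. Its log2 fold change was -1.05 ± 0.18 in F4 sterile (edgeR adjusted p = 0.00057) and -0.70 ± 0.18 in F4 fertile (edgeR adjusted p = 0.016), both against P0. Y73B3A.10, next to it and without an entry in release 115, had -1.08 ± 0.22 in F4 sterile (edgeR adjusted p = 0.0015). T08D2.9, a further pseudogene, had -0.86 ± 0.29 (edgeR adjusted p = 0.030), and the call was lost without lineage 1 or 2 of F4 sterile (-0.70, edgeR adjusted p = 0.083, and -0.75, edgeR adjusted p = 0.064) and with only the 6 samples compared (edgeR adjusted p = 0.087). All 9 tested T08D2 genes had a negative log2 fold change, from -0.97 to -0.22, and T08D2.9 was the only one called.

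Y73B3A.20 at 47799 to 48496, which overlaps Y73B3A.18, was at 2.45, 4.46 and 3.97 CPM in F4 sterile and 9.41, 8.65 and 7.92 in P0 (-1.18 ± 0.32, edgeR adjusted p = 0.0092). The remaining lower genes of the window were Y35H6.3 (-0.85) and CE7X_3.3 (-0.89). The gene called higher there was AC8.3, which was at 1.84, 7.94 and 2.30 CPM in F4 sterile and 1.26, 0.298 and 1.2 in P0. Its lineage 2 value set it apart, and the log2 fold change was 1.78 ± 0.59 (edgeR adjusted p = 0.026).

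Few pseudogenes were called higher outside that window too. Of 39 pseudogenes among the 501 genes tested, 2 were higher and 6 lower in F4 sterile than in P0, with a median of -0.17. Outside the outermost window 2 of 19 were higher and 2 lower, with a median of -0.03. Of 438 protein-coding genes among the 501, 329 were higher and 5 lower, with a median of 1.55. The 12 protein-coding genes tested in the outermost window gave 1 higher and 2 lower, with a median of -0.42. ZK380.t2, a tRNA pseudogene at 1643845 to 1643917, was at 8.99, 7.16 and 8.64 CPM in P0, 6.05, 9.88 and 9.66 in F2 fertile, 2.32, 4.25 and 5.31 in F4 fertile, and 2.76, 3.70 and 4.81 in F4 sterile (-1.09 ± 0.32 in F4 sterile against P0, edgeR adjusted p = 0.015).

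The share of genes called higher in F4 sterile was larger where more reads were counted. In 4 parts of the 501 genes, ordered by mean CPM, which is not scaled to gene length, 62 of 126, 81 of 125, 95 of 125 and 103 of 125 genes were higher, from the lowest to the highest part. The parts ended at 2.73, 6.21, 18 and 572.0 CPM. The mean was taken over all 12 samples, F4 sterile included, so that a rise there also moved a gene up in this order. The order and the share called higher are therefore not independent. Genes that overlapped another gene of at least 50 counts gave 41 of 56 higher and genes that did not 300 of 445.

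W05H9.4, a protein-coding gene at 6263610 to 6266879, had the smallest p among the 654 genes in F4 sterile against P0. It was at 25.4, 24.7 and 26.4 CPM in P0, 82.4, 79.9 and 67.6 in F2 fertile, 98.0, 86.6 and 99.4 in F4 fertile, and 166.2, 155.9 and 154.0 in F4 sterile. The P0 and F4 sterile values were separated from all others and varied little between lineages. The log2 fold changes were 1.58 ± 0.10 for F2 fertile against P0 (edgeR adjusted p = 1.6e-06), 2.62 ± 0.10 for F4 sterile against P0 (edgeR adjusted p = 3.7e-09) and 0.75 ± 0.09 for F4 sterile against F4 fertile (edgeR adjusted p = 0.0057). The last of these was not called with only the 6 samples compared (0.72, edgeR adjusted p = 0.12).

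The neighbour of W05H9.4, W05H9.2 at 6267013 to 6271023, followed the same course over the 12 samples, with a Pearson correlation of log2 CPM of 0.995. It was at 19, 15.5 and 16.6 CPM in P0, 75.3, 71.2 and 47.2 in F2 fertile, 92.8, 79.4 and 95.1 in F4 fertile, and 155.5, 166.5 and 170.8 in F4 sterile. Of the other members, T14G8.3 (0.980), T09B9.4 (0.975), F39C12.1 (0.974) and F14D12.1 (0.973) were next in likeness to W05H9.4. These are descriptions over samples that share their groups. All 4 tested W05H9 genes were higher in F4 sterile than in P0, with log2 fold changes of 1.62 to 3.23.

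F39C12.1, at 4834840 to 4853035, is among the 6 genes with the most counts and among the 5 with the smallest p in F2 fertile against P0. It was at 107.6, 81.1 and 97.1 CPM in P0, 386.9, 463.3 and 337.4 in F2 fertile, 385.0, 386.1 and 335.6 in F4 fertile, and 589.8, 691.4 and 592.9 in F4 sterile. F2 and F4 fertile samples overlapped, and both lay between P0 and F4 sterile. Against P0 it changed by 2.05 ± 0.13 on the log2 scale in F2 fertile gonads (edgeR adjusted p = 1.6e-06), and by 2.70 ± 0.14 in F4 sterile gonads (edgeR adjusted p = 4.3e-08). Part of it overlaps R08E3.1 on the other strand.

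R04D3.3, at 13288844 to 13290559, followed another course. It was at 107.2, 84.7 and 87.1 CPM in P0, 174.9, 182.8 and 162.0 in F2 fertile, 162.5, 160.4 and 161.3 in F4 fertile, and 149.0, 134.7 and 131.5 in F4 sterile. F2 and F4 fertile samples overlapped, and the F4 sterile samples lay below both of these groups and above P0. F2 fertile gonads exceeded P0 by 0.89 ± 0.10 (edgeR adjusted p = 0.00017) and F4 sterile gonads by 0.57 ± 0.10 (edgeR adjusted p = 0.00047) on the log2 scale, while that of F4 sterile against F4 fertile did not pass the threshold (-0.22 ± 0.09, edgeR adjusted p = 0.20). T10B10.3, named *pkhm-2* in release 115, was also among the 5 genes with the smallest p in F2. It was at 35, 17.9 and 19.2 CPM in P0, 101.0, 116.2 and 104.2 in F2 fertile, 106.7, 141.5 and 156.5 in F4 fertile, and 132.3, 175.6 and 193.1 in F4 sterile.

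**Figure D5:**
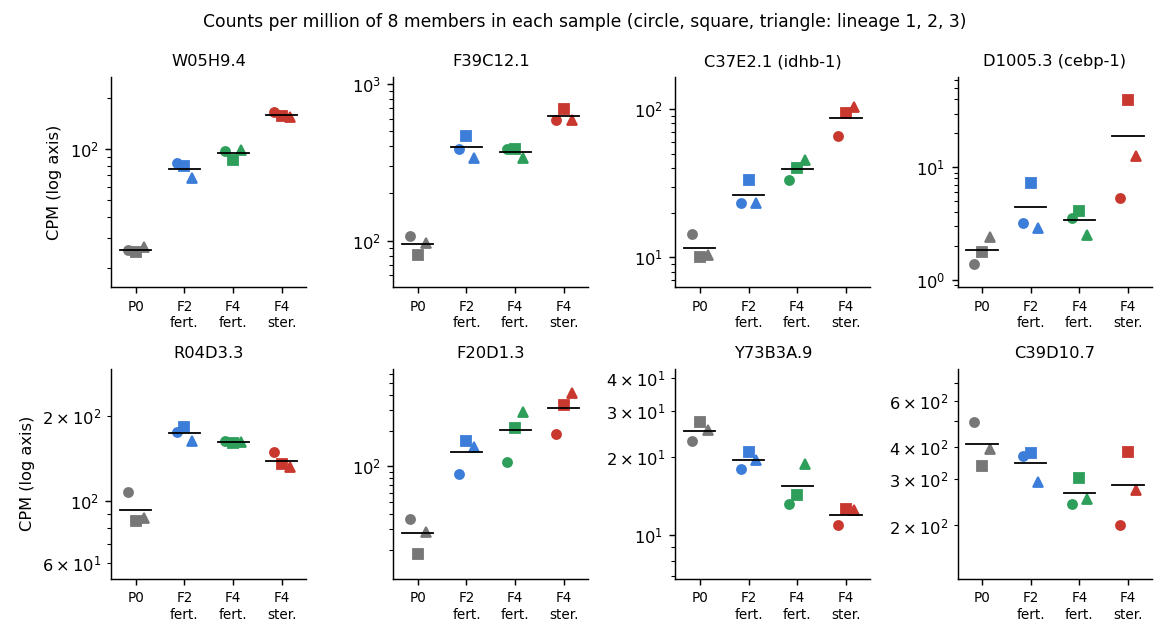
CPM on logarithmic axes with a different scale in each panel for 8 genes in each sample (symbols mark the lineage, bars the group means). W05H9.4, F39C12.1, *idhb-1* and F20D1.3 are above P0 in every homozygous sample, R04D3.3 peaks at 182.8 CPM in F2 fertile, *cebp-1* reaches 39.4 CPM in lineage 2 of F4 sterile, and Y73B3A.9 and C39D10.7 have their highest value in P0.

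Among the 12 genes with the largest log2 fold change by edgeR in F4 sterile against P0, C31E10.6 at 13996238 to 13999282 came first. By DESeq2 it had 3.88, and some genes with few counts in P0 had more, such as T14G11.1 (4.88) and F52E4.5 (4.48). It was at 2.81, 4.47 and 2.88 CPM in P0, 12.1, 15.3 and 7.86 in F2 fertile, 11.4, 26.9 and 20.2 in F4 fertile, and 31.1, 64.8 and 54.5 in F4 sterile (3.81 ± 0.39, edgeR adjusted p = 1.2e-05). F20D1.3 at 14976045 to 14978651 was at 35.8, 18.2 and 28.1 CPM in P0, 86.3, 164.9 and 144.9 in F2 fertile, 107.8, 211.1 and 286.3 in F4 fertile, and 188.2, 325.7 and 411.1 in F4 sterile. Lineage 1 was the lowest in all 3 homozygous groups of F20D1.3 and the highest in P0. Its log2 fold change in F4 sterile against P0 was 3.44 ± 0.40 (edgeR adjusted p = 3e-05).

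C15H9.5 at 6093251 to 6097536 was at 5.2, 3.88 and 3.6 CPM in P0, 14.9, 13 and 7.64 in F2 fertile, 20.6, 21.2 and 14.9 in F4 fertile, and 51.1, 46.2 and 43.9 in F4 sterile (3.35 ± 0.26, edgeR adjusted p = 1.9e-06). The F4 sterile values were again clear of the other groups. F57G12.1 at 12169030 to 12171615 was at 32.4, 46.0 and 24.5 CPM in F4 sterile and 3.23, 3.28 and 2.64 in P0 (3.36 ± 0.33, edgeR adjusted p = 7.5e-06).

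Other genes of the 12 had few counts in P0. T14G11.1 and W06B11.1, named *atat-2* in release 115 after alpha-tubulin acetyltransferase, each had 3 counts over the 3 P0 samples. T14G11.1 had 137 counts in F4 sterile and 3 in P0, which gave a ratio of 32.6 after scaling to library size, with a 95% exact counting interval of 10.9 to 160.1. For W06B11.1 the numbers were 131 and 3, with a ratio of 31.2 (10.4 to 153.2). These intervals cover counting error only.

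In 5 of the 12 genes, T01B6.1, F52E4.5, F15G9.1, D1025.10 and F59C12.3, the lineage 2 sample of F4 sterile was at least 2 times as high as both others. T01B6.1 at 2335676 to 2348614 was at 7.97, 27.1 and 13.2 CPM in F4 sterile and at 1.83, 0.298 and 0.240 CPM in P0 (3.72 ± 0.61, edgeR adjusted p = 0.00037). F15G9.1 at 9705586 to 9708507 was at 2.15, 14.4 and 4.18 CPM in F4 sterile and at 0.562, 0.0 and 0.240 CPM in P0 (3.52 ± 0.70, edgeR adjusted p = 0.0014). In all 3 lineages of both genes F4 sterile was above P0, which the rule that chose the 12 genes required. Without lineage 2 of F4 sterile the log2 fold changes were 3.02 for T01B6.1, 2.42 for F52E4.5, 2.33 for F15G9.1, 2.58 for D1025.10 and 2.68 for F59C12.3, and all 5 were still called. They were larger without lineage 1 of P0 for T01B6.1 (4.74) and without lineage 3 of P0 for F59C12.3 (4.35).

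Between the F4 groups, the 5 genes with the largest called difference included a transcription factor. D1005.3 at 1452690 to 1454023, named *cebp-1* in release 115, encodes a bZIP factor of the C/EBP family known for its part in axon regeneration. It was at 1.4, 1.79 and 2.40 CPM in P0, 3.24, 7.22 and 2.92 in F2 fertile, 3.58, 4.15 and 2.53 in F4 fertile, and 5.37, 39.4 and 12.7 in F4 sterile. The lineage 1 sample of F4 sterile lay within the range of F2 fertile, while those of lineages 2 and 3 lay above every other sample. The log2 fold change was 2.37 ± 0.58 against F4 fertile (edgeR adjusted p = 0.045) and 3.20 ± 0.63 against P0 (edgeR adjusted p = 0.0013). Without lineage 2 of F4 sterile it was 1.24 against F4 fertile (edgeR adjusted p = 0.27) and 2.03 against P0.

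C30E1.9, a non-coding RNA gene near the right end at 16929841 to 16931546, had the largest difference between the F4 groups. It was at 4.78, 3.58 and 5.04 CPM in P0, 6.48, 6.58 and 4.49 in F2 fertile, 6.44, 5 and 6.57 in F4 fertile, and 23.2, 72.6 and 19.4 in F4 sterile. Its P0 and fertile groups overlapped, and the F4 sterile samples stood above all others (2.64 ± 0.43 against F4 fertile, edgeR adjusted p = 0.019). In F2 fertile against P0 it did not pass the threshold (0.37 ± 0.44, edgeR adjusted p = 0.70). W03G11.4 at 12076485 to 12093015 was alike in this, with 5.06, 20.4 and 7.52 CPM in F4 sterile and 1.61, 1.98 and 1.52 in F4 fertile (2.48 ± 0.47, edgeR adjusted p = 0.025). The other genes were C23H4.6 (2.39 ± 0.58) and C34E7.4 (2.19 ± 0.46), which is named *gmap-1* in release 115. Each of these 5 calls between the F4 groups was lost without any one of the 3 F4 fertile libraries and with only the 6 samples compared. Without lineage 2 of F4 sterile, C30E1.9 was still called (1.76, edgeR adjusted p = 0.013), and the calls of W03G11.4 (1.63, edgeR adjusted p = 0.086), C23H4.6 (1.24, edgeR adjusted p = 0.27) and C34E7.4 (1.59, edgeR adjusted p = 0.15) were lost. Over these settings and another size factor, the adjusted p of the lost calls ranged from 0.051 to 0.27.

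Other genes had the smallest p of their bin. T04G9.1 in bin 1, named *attf-5* for its AT-hook motif, was at 5.48, 4.77 and 5.52 CPM in P0, 19.7, 22.7 and 20.2 in F2 fertile, 23.8, 20.9 and 13.7 in F4 fertile, and 28.7, 32.5 and 25.3 in F4 sterile (2.38 ± 0.22 in F4 sterile against P0, edgeR adjusted p = 5.8e-06). It lies at 788352 to 796155, outside the outermost window. ZC504.3 in bin 6, named *cdk-11.2* as a cyclin-dependent kinase, was at 21.8, 13.7 and 21.8 CPM in P0, 45.1, 72.0 and 51.2 in F2 fertile, 54.7, 80.7 and 74.1 in F4 fertile, and 86.9, 116.9 and 125.4 in F4 sterile (2.48 ± 0.23, edgeR adjusted p = 5.5e-06). Part of it overlaps ZC504.2 on the other strand. In both genes P0 lay below all homozygous samples.

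T14G8.3 in bin 7 was at 80.5, 101.6 and 87.6 CPM in F4 sterile and 16.6, 13.1 and 12.7 in P0, and T09B9.4 in bin 5 was at 83.3, 108.1 and 113.3 CPM in F4 sterile and 21.5, 16.7 and 20.1 in P0. The smallest of these leading changes was that of F09C8.2 in bin 9, with 16.7, 15.8 and 22.5 CPM in P0, 26.2, 27.9 and 27.4 in F2 fertile, 33.1, 25.6 and 30.1 in F4 fertile, and 46.9, 85.0 and 51.8 in F4 sterile. Its log2 fold change in F4 sterile against P0 was 1.73 ± 0.22 (edgeR adjusted p = 5.8e-05), and that in F2 fertile was 0.56 ± 0.22 (edgeR adjusted p = 0.14). F40F4.7 in bin 2 was at 39.7, 34.7 and 36.8 CPM in F4 sterile and 9.13, 6.86 and 5.04 in P0.

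Several of the genes named since then encode enzymes of central metabolism, and these were picked here after their values were seen. C37E2.1, the gene with the smallest p in bin 8, is named *idhb-1* after the beta subunit of isocitrate dehydrogenase. It was at 14.3, 10.1 and 10.3 CPM in P0, 23.4, 33.0 and 23.1 in F2 fertile, 33.2, 40.2 and 45.0 in F4 fertile, and 65.5, 93.9 and 102.6 in F4 sterile (2.85 ± 0.22, edgeR adjusted p = 1.9e-06). Each group lay above the one before it within every lineage. C05G5.4 (*sucl-1*) and F47B10.1 (*suca-1*) encode subunits of succinyl-CoA ligase, the next step but one in the citric acid cycle. *sucl-1* was at 57.2, 119.7 and 101.6 CPM in F4 sterile and 12.5, 9.84 and 13 in P0 (2.93 ± 0.26), and *suca-1* was at 204.6, 321.3 and 311.2 in F4 sterile and 122.1, 36.1 and 54.7 in P0 (1.93 ± 0.35).

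D1005.1 (*acly-1*), for ATP citrate lyase, and C14F11.1 (*got-2.2*), for a mitochondrial aspartate aminotransferase, had smaller log2 fold changes of 1.07 ± 0.17 and 1.24 ± 0.15. W07E11.1, which encodes a glutamate synthase, is one of the 6 genes with the most counts. It was at 289.8, 215.9 and 258.3 CPM in P0, 510.3, 649.3 and 505.4 in F2 fertile, 398.3, 423.2 and 600.8 in F4 fertile, and 440.6, 780.9 and 816.1 in F4 sterile (1.41 ± 0.22, edgeR adjusted p = 0.00026). It overlaps 3 genes on the other strand. C07D8.6, also among the 6, was at 231.7, 505.8 and 410.9 CPM in F4 sterile and 111.2, 68.6 and 79.9 in P0 (2.13 ± 0.26, edgeR adjusted p = 4.8e-05). In F4 sterile all of these were above P0 in each lineage.

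In F4 sterile against P0, 245 of the 380 tested genes without a class name in release 115 were higher and 13 lower. Their median was 1.36. The 121 tested genes that have a class name in release 115 gave 96 higher and 0 lower in that comparison, with a median of 1.72. Among them C36C9.1 is *meg-4*, a germ granule gene, whose log2 fold change was 1.07 ± 0.18, and F23D12.5 is *jmjd-3.2*, a member of the family of lysine 27 demethylases of histone H3, with 3.37, 7.29 and 2.30 CPM in F4 sterile and 0.421, 0.298 and 0.480 in P0 (2.70 ± 0.62, edgeR adjusted p = 0.0036). Both were chosen after their values were seen.

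Of the 13 lower genes, the 3 outside bin 1 varied among the samples of a group. ZK813.1 at 3446299 to 3446922 was at 10.4, 0.895 and 0.720 CPM in P0, 6.20, 9.75 and 3.59 in F2 fertile, 1.61, 2.83 and 8.85 in F4 fertile, and 1.23, 0.109 and 0.0 in F4 sterile. The 0 in lineage 3 allows up to 0.627 CPM by counting error, taking 3 counts as the limit. The log2 fold change was -2.61 ± 0.92 in F4 sterile against P0 (edgeR adjusted p = 0.035), and lineage 1 carries most of the P0 counts. Without it the value was -0.61 (edgeR adjusted p = 0.60), and without lineage 1 of F4 sterile it was -3.61. The call was also lost without lineage 2 or 3 of F4 sterile (-2.31, edgeR adjusted p = 0.096, and -2.34, edgeR adjusted p = 0.088).

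C39D10.7 at 7907907 to 7914076 is one of the 6 genes with the most counts. It was at 494.8, 338.7 and 392.9 CPM in P0, 369.9, 378.7 and 292.9 in F2 fertile, 242.6, 303.1 and 251.4 in F4 fertile, and 200.4, 380.3 and 273.4 in F4 sterile. Its F4 sterile and P0 values overlapped, and the call was close to the limit (-0.52 ± 0.20, edgeR adjusted p = 0.049). It was lost without lineage 1 or 3 of F4 sterile (-0.33, edgeR adjusted p = 0.14, and -0.50, edgeR adjusted p = 0.10) and without lineage 1 of P0 (-0.46, edgeR adjusted p = 0.097). The same held with scaling by autosomal genes alone (edgeR adjusted p = 0.053) and with only the 6 samples compared (edgeR adjusted p = 0.11). F23A7.8 at 16213301 to 16213527 was at 40.8, 30.9 and 20.9 CPM in F4 sterile and 105.6, 29.2 and 60.0 in P0 (-1.08 ± 0.40, edgeR adjusted p = 0.040), and these also overlapped.

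Of 12 genes listed for their role in X regulation, all were tested. In F4 sterile against P0 5 were higher and 4 lower, beside 26.4% higher and 16.8% lower among all genes tested. The 3 of them that lie on X were all higher, as were 80.1% of the tested X-linked genes with a class name. The 3 are *lin-15B*, a zinc finger gene of the synMuv B class, and *utx-1* and *jmjd-3.1*, which encode lysine 27 demethylases of histone H3. *lin-15B* was at 186.8, 344.5 and 404.2 CPM in F4 sterile and 63.9, 60.8 and 55.9 in P0 (2.36 ± 0.30, edgeR adjusted p = 5.5e-05). *mes-6*, which encodes a subunit of the Polycomb-type complex, was at 120.5, 99.7 and 110.4 CPM in F4 sterile and 178.4, 177.1 and 182.8 in P0 (-0.70 ± 0.09, edgeR adjusted p = 4.9e-05). *mes-3* was higher by 0.36 ± 0.08 (edgeR adjusted p = 0.0033). The genes *mes-2* (-0.06), *mes-4* (-0.05) and *met-1* (0.22, edgeR adjusted p = 0.057) did not pass the threshold. The germline Notch receptor gene *glp-1* was the other one higher, and *xnd-1*, *him-8* and *him-5* were the other ones lower.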

How the data were processed

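Per the study's methods, the authors aligned reads of rRNA-depleted gonad RNA with TopHat2 against transcripts of WS220. Unique alignments outside ribosomal RNA were counted per gene with HTSeq, and the authors deposited these whole counts without normalization. The strand setting of the counting is not given in the sources used here. The authors also deposited a gene table with names, WS220 positions, counts divided by DESeq2 size factors, and fold changes with p-values for 5 pairs of groups. Names and positions were taken from it, and the values of those comparisons were not used. Reads on no gene (8.23% to 14.4%) and ambiguous reads (1.76% to 2.24%) were left out.

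After edgeR's filterByExpr and TMM scaling, the quasi-likelihood test of edgeR 4.0.16 (R 4.3.3) was fitted to the counts of all 12 samples, with each group as a coefficient and a prior count of 2 behind the fold changes. Each SE of a log2 fold change was derived as its absolute value divided by the square root of the F statistic of the test. The prior count makes fold changes of genes with few counts smaller, so that their SE is only approximate. Adjusted p-values follow Benjamini and Hochberg over 8746 genes. CPM values are counts divided by the TMM-scaled library size, on the usual CPM scale. The procedure was tested on simulated data. Alternatives were DESeq2 1.42.0, other size factors, other filters, covariates, a replicate block and leaving out libraries. Lineages trace to their own P0 animals, which pairs the samples. Of 18 pairs with the same number, 7 had a correlation of deviations above 0.1 (mean 0.0953). Of 36 other pairs 10 did, with a mean of -0.0477. Deviations from a group mean cancel out within the group, so that these means are not independent. Many pairs with the same number also share a library-name prefix. P-values rest on the spread between the 3 samples within a group, pooled over the groups and shared in part between genes. The main fit has no lineage term.

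The members and lists were chosen with earlier results of these data known. Genes were named by fixed rules: the 12 largest and 6 most negative called changes in F4 sterile against P0 that held in every lineage with at least 50 counts in the higher group, the smallest p in each bin, the 5 largest called differences between the F4 groups, the 5 smallest p in F2 against P0, the 6 with the most counts, and those at the limit of 50 counts. Others are said to be picked after their values were seen, or complete a group of neighbours or of lower genes. Positions in the table differed from WBcel235 by a median of 1 base in the first 2 Mb and 73 bases in the last bin, so that release 115 was joined by identifier only. Promoter, protein and genome sequences were not used here, and the motif count planned on them was not run.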

Additional observations from a re-analysis of the deposited data

Results flagged for a closer look

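ZK813.1 lay on opposite sides of the P0 mean in 2 groups, of which F2 fertile was not called different from P0 (0.56 ± 0.83, edgeR adjusted p = 0.77). In F2 fertile every sample lay above the mean of the P0 samples on the log2 scale, by 1.41 on average, and in F4 sterile every sample lay below it, by an average difference of -2.0. The difference between these 2 comparisons was not tested, and both use the same P0 samples. Among those, lineage 1 was at 10.4 CPM and lineages 2 and 3 at 0.895 and 0.720. The lineage 1 value was above every F2 fertile sample, and without it the call in F4 sterile was lost (-0.61, edgeR adjusted p = 0.60).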

How the results depend on the processing

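Of 144 alternative values for the counts of genes called, 112 stayed within 1.5 times the count given. Many of these are 0 beside a count of 0, as in both directions of F4 fertile against F2 fertile, and say little about the other counts. Leaving out 1 library at a time gave 58 to 103 genes higher and 0 lower in F2 fertile against P0, 122 to 163 higher and 1 to 11 lower in F4 fertile against P0, 280 to 360 higher and 9 to 19 lower in F4 sterile against P0, 1 to 145 higher and 0 to 3 lower in F4 sterile against F4 fertile, and 0 in both directions in F4 fertile against F2 fertile. With only the 6 samples compared, 1 gene was lower in F2 fertile, 7 were lower in F4 sterile, both against P0, and 0 were higher in F4 sterile against F4 fertile. DESeq2 called 14 lower in F4 fertile against P0 and 90 higher in F4 sterile against F4 fertile. With the library-name prefix as a covariate, 2 were lower in F2 fertile against P0, 160 higher and 1 lower in F4 sterile against F4 fertile, and 1 higher in F4 fertile against F2 fertile. Without a filter on low counts, 1 was lower in F2 fertile and 23 in F4 sterile against P0, 120 were higher and 10 lower between the F4 groups, while F4 fertile against F2 fertile gave 3 higher and 4 lower. The replicate block, which uses the pairing of samples by lineage, gave 82 higher and 1 lower in F4 sterile against F4 fertile, and it moved no other count by more than 1.5 times. Outside the first 0.25 Mb, an alternative added after seeing the data, 5 genes were lower in F4 sterile against P0. The cause was not tested, apart from the smaller number of samples or genes where these were left out. The median of bin 1 ranged from -0.09 to 0.22 when 1 library was left out. It changed sign to -0.09 without replicate 2 of F4 sterile, -0.01 without replicate 2 of P0, -0.03 for genes with at least 200 counts, -0.05 with bins shifted by 1 Mb and -0.36 in the first 0.25 Mb. The medians of the other bins kept their sign. Of 649 alternative values for the 39 genes named by rule, 610 kept their direction and their side of the threshold, 38 lost the call and 1 gained it. The lost calls were those of C39D10.7, T08D2.9 and ZK813.1 in F4 sterile against P0, and those of C23H4.6, C30E1.9, C34E7.4, D1005.3, W03G11.4 and W05H9.4 between the F4 groups, which were added after seeing the data, as were those for F2 fertile against P0. DESeq2 gave larger log2 fold changes in F4 sterile against P0 for 5 genes with few counts, T14G11.1 (4.88), W06B11.1 (4.75), F52E4.5 (4.48), F15G9.1 (4.43) and ZK813.1 (-3.23). The medians of all genes stayed between -0.02 and 0.08 under the alternatives. In the library with the fewest counts, 3 counts correspond to 0.895 CPM after TMM scaling, so that genes near that level are poorly resolved.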

Other observations

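The AC8 genes of the first 0.25 Mb include 3 pairs of equal length in the gene table, AC8.3 and AC8.10 (1682 bases), AC8.4 and AC8.11 (744 bases) and AC8.7 and AC8.12 (931 bases), in the same order along the chromosome. AC8.10 was at 1.07, 7.18 and 2.09 CPM in F4 sterile and 1.4, 0.596 and 0.720 in P0, close to AC8.3 in each of these samples. Only uniquely mapping reads were counted, and whether the pairs share sequence was not tested.

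A cluster of 4 genes at 11879042 to 11883975, Y62H9A.3, Y62H9A.4, Y62H9A.5 and Y62H9A.6, was picked after its values were seen. Y62H9A.6 is named *ule-5*, after uterine lumen expression, in release 115. Their log2 fold changes in F4 sterile against P0 ranged from -1.96 to -1.79, and none passed the threshold (edgeR adjusted p = 0.052 to 0.13). Y62H9A.5 was at 11, 2.68 and 1.44 CPM in P0, 11.5, 19.8 and 4.04 in F2 fertile, 3.93, 6.42 and 14.7 in F4 fertile, and 2.61, 0.0 and 1.25 in F4 sterile. As in ZK813.1, lineage 1 was the highest P0 sample, lineage 2 the highest F2 sample, lineage 3 the highest F4 fertile sample and lineage 1 the highest F4 sterile sample.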
